A study of Caenorhabditis elegans with 32 samples.

Results

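The genes examined here encode the 3 families of small secreted signalling peptides of the nematode Caenorhabditis elegans: the flp genes for FMRFamide-like peptides, the nlp genes for neuropeptide-like proteins and the ins genes for insulin-like peptides. They were taken by name from the deposited count table, as every row named flp, nlp or ins followed by a hyphen and a number. This gave 144 genes of 46926 rows, with 31 flp, 75 nlp and 38 ins genes. RNA was sequenced in 32 libraries from whole day 1 adult hermaphrodites of 4 strains that differ at lotr-1, a germ granule gene whose protein has LOTUS and Tudor domains. The wild type is strain DUP167 (allele sam85), in which LOTR-1 bears an N-terminal 3xFLAG::GFP tag. The full in-frame deletion delta-LOTR-1 is DUP207 (sam117), the LOTUS-domain deletion delta-LOTUS is DUP217 (sam113) and the Tudor-domain deletion delta-Tudor is DUP185 (sam102). The genotype labels of all 4 strains, controls included, carry the 3xFLAG::gfp tag, and no treatment was applied. Worms were grown on OP50 bacteria at 20 C. Each genotype is held by 1 strain, so other sequence differences between strains cannot be told apart from lotr-1. Each strain has 4 replicates, and each replicate lysate gave 1 library of total polyadenylated RNA (lysate) and 1 library from the polysome fraction of a sucrose gradient.

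Neuropeptides are made as longer precursors that are cut by proprotein convertases and carboxypeptidases, often amidated, packed into dense-core vesicles and released to act mostly on G protein-coupled receptors. FMRFamide-like peptides come mainly from neurons and modulate feeding, egg laying, locomotion and sleep. The nlp genes are more mixed: many are neuronal, while nlp-29 and its relatives encode glycine-rich and aromatic-rich antimicrobial peptides of the epidermis, and nlp-40 encodes an intestinal peptide that times the expulsion step of defecation. Insulin-like peptides act on one receptor, DAF-2, as agonists or antagonists, and the receptor restrains the transcription factor DAF-16. Polysomes are mRNAs carrying several ribosomes, so the polysome level relative to the lysate is a common proxy for ribosome loading.

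Totals ran from 31.4 to 40.2 M counts in the lysates and from 27 to 36.2 M in the polysome libraries. Levels are given as CPM (counts scaled to a common library size) on library sizes scaled by TMM, which assumes that most genes do not change. CPM values are not corrected for length, so they compare a gene between libraries and not genes with each other. In the lysates lotr-1 (WBGene00008385) measured 305, 329, 203 and 107 CPM in wild-type replicates 1 to 4 and 78.4, 80.8, 43.0 and 28.1 CPM in delta-LOTR-1. Polysome levels were 77.7 ± 34.8 CPM without and 85.3 ± 39.4 CPM with the deletion (SD, n = 4). The gene thus checks the wild-type and delta-LOTR-1 labels of the lysates and no label of the polysome libraries. Same-numbered libraries of different strains deviated together, and germ line markers fell off with replicate number: the summed CPM of 19 such genes was 11300 to 13470 in the lysates of replicate 1, 12920 to 13470 in replicate 2, 6401 to 6985 in replicate 3 and 3193 to 4457 in replicate 4. The summed CPM of 12 sperm markers ran the other way, from 86.86 to 231.2 in replicates 1 and 2 to between 773.5 and 1157 in replicates 3 and 4. In such bulk samples fewer cells of a type and less RNA per cell cannot be told apart.

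All 3 families took a small share of the mRNA. In the wild-type lysates the 31 flp genes held 0.0229% ± 0.0042 of all counts, the 75 nlp genes 0.130% ± 0.0255 and the 38 ins genes 0.00445% ± 0.00161 (SD, n = 4). A single gene, nlp-77 (WBGene00015514), supplied 0.0608% ± 0.00839; the gene names table lists this identifier as srlf-1, so its place in the nlp family rests on the deposited name. Without it the remaining 74 nlp genes held 0.0688% ± 0.0185. In the wild-type polysome fraction the shares were 0.0248% ± 0.00368 for flp, 0.224% ± 0.0259 for nlp and 0.0060% ± 0.00202 for ins. Over the 4 strains the mean lysate share ran from 0.0224% to 0.0229% for flp, from 0.123% to 0.130% for nlp and from 0.00431% to 0.00474% for ins. These ranges were less than the SD within a strain, which holds the differences between replicate numbers that the strains share. On TMM sizes the wild type held 0.0212% against 0.0195% to 0.0197% in the mutants for flp. For nlp it held 0.120% against 0.106% to 0.110%, and for ins 0.00409% against 0.00370% to 0.00409%. The shares were not tested.

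Detection differed by family. A low-count filter was passed by 123 members in the lysates, which were 30 flp, 70 nlp and 23 ins genes, and by 127 when both fractions were fitted together. The 17 that did not pass were flp-23, nlp-22, nlp-23, nlp-32, nlp-60 and 12 ins genes, each with at most 162 counts summed over 32 libraries. The genes ins-10, ins-11, ins-23 and nlp-39, passed only once polysome libraries were included. These 4 entered through the fraction where they were high. The numbers called between the fractions with all 32 libraries on TMM sizes are therefore also given for the 123 that passed in the lysates alone.

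Among FMRFamide-like genes of the wild-type lysates, flp-28 (WBGene00044686) measured 17.6, 20.1, 22.3 and 21.2 CPM in replicates 1 to 4 and flp-1 (WBGene00001444), which encodes peptides needed for normal sinusoidal movement, 16.7, 17.4, 20.9 and 21.04 CPM. In both genes replicates 3 and 4 were a little above replicates 1 and 2. The sleep peptide gene flp-11 (WBGene00001454) measured 14.6 ± 2.92 CPM, flp-9 12.5 ± 2.98 CPM, flp-22 11.8 ± 1.41 CPM and flp-24 11.03 ± 1.19 CPM (SD, n = 4). Among genes picked for their role, flp-14 was at 9.43 ± 0.966 CPM, flp-18, a source of ligands of the NPR-1, NPR-4 and NPR-5 receptors, at 8.81 ± 1.34 CPM, and flp-17, whose peptides act through EGL-6 to inhibit egg laying, at 6.52 ± 0.817 CPM. The stress-sleep gene flp-13 stood at 3.93 ± 0.159 CPM and flp-21, which encodes a ligand of NPR-1, at 2.17 ± 0.386 CPM.

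Among the nlp genes, nlp-77 measured 514, 539, 629 and 572 CPM in the wild-type lysates and nlp-40 (WBGene00022276) measured 115, 105, 96.5 and 109 CPM. For nlp-77 replicates 3 and 4 were above replicates 1 and 2, while nlp-40 showed no such order. The others of the 6 with most counts per library were nlp-24 at 82.0 ± 35.2 CPM, nlp-27 at 69.3 ± 11.99 CPM, nlp-36 at 61.3 ± 13.5 CPM and nlp-33 at 54.5 ± 46.0 CPM (SD, n = 4). For nlp-24 and nlp-33 the SD reflects a split by replicate number that is described further on. The olfactory peptide gene nlp-1 was at 3.50 ± 0.572 CPM and nlp-12, the cholecystokinin-like gene, at 3.12 ± 0.534 CPM.

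The 6 ins genes with the highest CPM in wild-type lysates were ins-37 at 6.03 ± 6.32 CPM, ins-17 at 5.52 ± 1.05 CPM, ins-27 at 4.68 ± 3.37 CPM, ins-34 at 3.52 ± 3.14 CPM, ins-30 at 3.37 ± 0.547 CPM and ins-33 at 2.10 ± 1.03 CPM. The DAF-2 agonist genes ins-6 and ins-4 stood at 1.73 ± 0.696 and 0.516 ± 0.212 CPM, and the intestinal agonist ins-7 at 0.882 ± 0.353 CPM. The genes of presumed antagonists, ins-18 and ins-1, were at 1.19 ± 0.121 and 0.803 ± 0.077 CPM, and ins-11, a gut-to-neuron signal in pathogen responses, was at 0.112 ± 0.0929 CPM (SD, n = 4). The ins-11 values rest on 1 to 10 counts per library, so counting error is large there.

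The mRNAs of these genes were higher in polysomes than in the lysate of the same animals far more often than they were lower. Over the mean of the 4 strains, the quasi-likelihood test of edgeR with p-values adjusted by Benjamini-Hochberg called 101 of the 127 genes tested higher in polysomes and 2 lower at an adjusted p under 0.05, against 25.2% and 26.2% of the 16253 genes tested. Of the 123 members that passed in the lysates alone, 97 were called higher and 2 lower, and 115 had a log2 ratio above 0, with a median of 0.774, against a median of 0.05 over all genes. In 80 of 127 members the polysome library was above its own lysate in 16 of 16 lysates and in 0 below it, against 23.5% and 21.3% of the 16253 genes tested. None of the 4 members that passed only with the polysome libraries was among these 80. The shift differed by family in size: the median log2 ratio was 0.55 for 30 flp genes, of which 23 rose and 1 fell. It was 0.80 for 71 nlp genes, with 58 up and 1 down, and 0.99 for 26 ins genes, with 20 up and none down. Among members that passed in the lysates alone it was 0.80 for 70 nlp genes, with 57 up and 1 down. For the 23 ins genes among them it was 0.90, with 17 up and none down. The difference between families was not tested. With the block 114 of 127 members were called higher and 4 lower, against 41.2% and 36.2% of all genes. Of the 123 that passed in the lysates alone, the block called 110 higher and 4 lower.

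**Figure D1:**
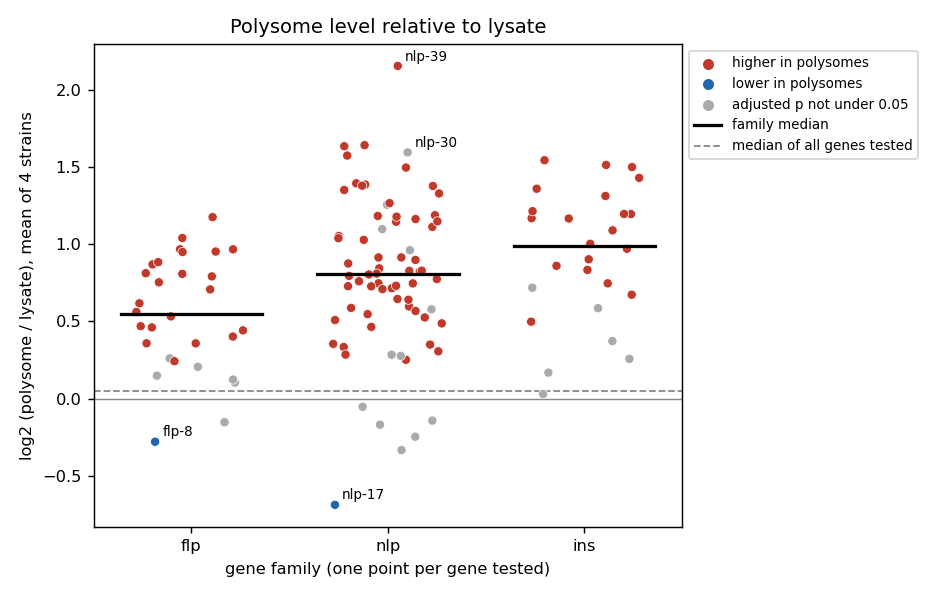
Log2 ratio of polysome to lysate level, as the mean of the 4 strains, on the vertical axis for each flp, nlp and ins gene tested; the solid bar is the family median and the dashed line the median of all 16253 genes tested. Most points of each family lie above the dashed line, and flp-8 and nlp-17 are the 2 genes called lower. The points and medians include ins-10, ins-11, ins-23 and nlp-39, which passed the filter only with the polysome libraries. Without them the ins median was 0.90.

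In the wild type alone, where 4 pairs carry the test, 42 of 127 members were called higher and 0 lower, against 9.59% and 9.72% of 16253 genes. All 42 were among the 123 members that passed in the lysates alone. With each lysate as a block, which compares the 2 fractions of the same lysate, 87 were called higher and 2 lower, against 29% and 26.6% of all genes. Of the 123 it called 86 higher and 2 lower. Whether called or not, 94 of 127 members were higher in 4 of 4 wild-type pairs and 3 lower, against 34.3% and 28.9% of genes. With library totals in place of TMM sizes the median of all genes moved from 0.07 to -0.28 and 15 members were called higher and 0 lower, against 4.13% and 20.1% of genes. The median of all 127 members lay 0.588 above that of all genes under either scaling. With TMM it was 0.654, and 0.648 for the 123 that passed in the lysates alone. Over the 4 strains, library totals gave 2116 genes higher and 6106 lower of all genes, against 4099 and 4263 with TMM, and 66 members higher and 6 lower. Without one of the wild-type replicates 1, 2 or 3 the count fell to 27, 26 and 27, against 6.64%, 5.98% and 6.67% of genes called higher in the same fits. The pair counts, the counts on library totals and those without 1 replicate cover all 127 members. They include the members that passed only with the polysome libraries, so they are a description.

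Several of the largest shifts were in insulin genes. ins-26 (WBGene00002109) measured 1.09, 1.16, 1.45 and 1.57 CPM in the wild-type lysates and 4.17, 3.90, 3.97 and 4.02 CPM in the polysomes, a log2 ratio of 1.60 (SE 0.23, adjusted p = 8.1e-06). The 2 ranges did not overlap. The agonist gene ins-4 (WBGene00002087) measured 0.781, 0.527, 0.264 and 0.493 CPM against 1.68, 2.14, 1.47 and 1.33 CPM, a log2 ratio of 1.67 (SE 0.32, adjusted p = 0.00045), again without overlap. ins-29 had a log2 ratio of 1.47 (SE 0.35, adjusted p = 0.003), ins-6 one of 1.05 (SE 0.33, adjusted p = 0.0266) and ins-1 one of 0.92 (SE 0.32, adjusted p = 0.0457). ins-31 had the highest ratio, 2.32 (SE 0.81, adjusted p = 0.0444), but its wild-type lysates held 1 to 3 counts each and its polysome libraries 0.0373, 0.857, 0.184 and 0.0316 CPM, so replicate 2 carries most of the value. In the wild type ins-7 (0.81, adjusted p = 0.065), ins-11 (0.98, adjusted p = 0.496) and ins-18 (0.53, adjusted p = 0.215) did not pass; the block brought ins-7 past the threshold at adjusted p = 0.00486.

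The intestinal peptide gene nlp-40 showed the shift with little scatter. Its wild-type polysome libraries held 291, 285, 228 and 218 CPM, all above the 96.5 to 115 CPM of the lysates, for a log2 ratio of 1.26 (SE 0.13, adjusted p = 5.48e-08). nlp-77 rose from between 514 and 629 CPM to between 1197 and 1301 CPM, a log2 ratio of 1.15 (SE 0.18, adjusted p = 2.5e-05). nlp-28 rose by 1.56 (SE 0.35, adjusted p = 0.00185) and nlp-24 by 1.52 (SE 0.51, adjusted p = 0.0351). nlp-12 (0.20, adjusted p = 0.723) and nlp-1 (0.28, adjusted p = 0.427) did not pass in the wild type.

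Among the flp genes the shift was smaller. flp-17 measured 5.75, 7.12, 5.88 and 7.32 CPM in wild-type lysates and 11.2, 13.6, 11.1 and 13.1 CPM in polysomes, a log2 ratio of 0.91 (SE 0.18, adjusted p = 0.000619) without overlap. flp-13 rose by 0.65 (SE 0.21, adjusted p = 0.0291) and flp-28 by 0.87 (SE 0.23, adjusted p = 0.00849). flp-1 at 0.57 (adjusted p = 0.0581), flp-21 at 0.64 (adjusted p = 0.104), flp-11 at 0.44 (adjusted p = 0.25), flp-14 at 0.31 (adjusted p = 0.172) and flp-18 at 0.26 (adjusted p = 0.38) did not pass without the block and passed with it. Leaving out 1 replicate number at a time, the block kept flp-1, flp-21 and flp-11 in 4 of 4 fits, flp-14 in 2 of 4 and flp-18 in 1 of 4. On library totals flp-14 and flp-18 turned to -0.04 and -0.09, so their direction depends on the scaling. The 2 members called lower over the 4 strains were flp-8, at -0.28 (SE 0.11, adjusted p = 0.0333), and nlp-17, at -0.69 (SE 0.24, adjusted p = 0.0178); both were chosen after their values were seen.

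The genes that make, release and receive the peptides were less uniform. Of all 16253 genes tested, 25.2% were called higher and 26.2% lower over the 4 strains. Over the mean of the 4 strains, 9 of 10 other peptide precursors were called higher in polysomes, with a median log2 ratio of 0.73; in the wild type daf-7, pdf-1, pdf-2 and snet-1 were called, and the insulin gene daf-28, at 0.82, had adjusted p = 0.0603. Of 20 genes for processing and release, 9 were higher and 6 lower (median 0.17). The carboxypeptidase gene egl-21, which trims the cut precursors, measured 46.1, 50.5, 60.2 and 46.5 CPM in wild-type lysates and 65.2, 76.5, 80.0 and 67.0 CPM in polysomes, a log2 ratio of 0.51 (adjusted p = 0.0475). The proprotein convertase genes kpc-1 (0.87, adjusted p = 6.9e-05) and aex-5 (0.90, adjusted p = 0.0214), the amidation genes pghm-1 (0.73, adjusted p = 0.00311) and pgal-1 (0.60, adjusted p = 0.0167) and the Rab2 gene unc-108 (0.71, adjusted p = 0.0152) were also called higher. The main neuronal convertase gene egl-3 was at 0.09 (adjusted p = 0.845), while bli-4, another convertase gene, was lower at -0.51 (adjusted p = 0.0173), as was the kinase gene pkc-1 at -1.28 (adjusted p = 0.00849).

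Of 88 neuropeptide receptor genes tested over the 4 strains, 16 were higher and 5 lower (median 0.14). Both were below the 25.2% and 26.2% of all genes. In the wild type sprr-2 (1.08), daf-38 (1.01) and npr-24 (1.00) were called higher and npr-30 (-1.86) lower. The insulin pathway went mostly the other way: 1 of 19 genes was higher and 11 lower over the 4 strains (median -0.53), against the same shares of all genes. The insulin receptor gene daf-2 (WBGene00000898) measured 49.2, 47.9, 31.7 and 9.53 CPM in wild-type lysates and 25.98, 18.1, 14.8 and 5.63 CPM in polysomes. It was lower in each pair but overlapped between fractions, and its log2 ratio of -1.10 had adjusted p = 0.239 in the wild type, 5.08e-05 with the block and 0.000507 over the 4 strains. daf-16 was at -0.50 (adjusted p = 0.244 in the wild type). In the wild type age-1 (-1.59), skn-1 (-1.52), hsf-1 (-1.46) and ist-1 (-0.58) were called lower and the antioxidant gene sod-3 (0.93) higher.

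Tissue markers differed between the fractions by list. The counts stand beside 25.2% of all 16253 genes called higher and 26.2% lower over the 4 strains. Over the 4 strains, 0 of 19 germ line markers were higher in polysomes and 17 lower (median -1.18), while 9 of 22 neuron markers were higher and none lower (median 0.38). Among the other somatic lists, 8 of 15 intestine markers were higher and none lower, 7 of 12 muscle markers higher and 2 lower, 2 of 15 epidermis markers higher and 1 lower, 2 of 11 pharynx markers higher and 2 lower, and 4 of 10 somatic gonad markers higher and 1 lower. The epidermis and pharynx counts were below the shares of all genes in both directions. Of 12 sperm markers 5 were higher. On library totals the medians were -1.51 for germ line and 0.01 for neuron markers, while epidermis, receptor and processing lists turned to -0.18, -0.21 and -0.18. The median of all genes was -0.31 on library totals and 0.05 with TMM, so those lists still lay above it on library totals. All markers of these tissue lists had counts. The summed germ line CPM in replicate 1 was 11300 to 13470 in lysates and 5646 to 6487 in polysomes, and that of neuron markers 309.8 to 336.1 and 451.4 to 491.7. Their part in the shift of the peptide genes was not tested.

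The nlp-29 group had the highest median shift of the lists examined. These are the 11 genes nlp-24 to nlp-34, and 10 passed the filter. All 10 were higher in polysomes in 16 of 16 lysates, against 23.5% of all genes, with a median log2 ratio of 1.39 over the 4 strains. The test called 7 of 10 higher, against 25.2% of genes, and 10 of 10 with the block, against 41.2%. Of the related cnc genes, 6 of 6 tested were called higher, with a median of 1.35; 5 others of the 11 did not pass the filter. nlp-27 rose by 1.31 in the wild type (SE 0.19, adjusted p = 9.4e-06) and nlp-31 by 1.35 (SE 0.28, adjusted p = 0.000869).

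Members that lie side by side in the RefSeq annotation did not share all of their behaviour. In assembly WBcel235, 37 members adjoin another member, in 12 runs. The longest run is nlp-34, nlp-31, nlp-30, nlp-29, nlp-28 and nlp-27. All 6 had polysome ratios between 1.26 and 1.64 on the log2 scale over the 4 strains, and differed in how their levels split by replicate number. nlp-29, a gene induced by fungal infection and wounding of the epidermis, measured 2.30 ± 0.432, 2.77 ± 0.41, 8.12 ± 0.347 and 13.1 ± 0.669 CPM in the lysates of replicates 1 to 4 (SD over the 4 strains). nlp-30 measured 0.40, 0.372, 3.51 and 7.79 CPM and nlp-34 measured 0.33, 0.333, 1.97 and 4.67 CPM as means of the strains. In these 3 genes every lysate of replicates 3 and 4 was above every lysate of replicates 1 and 2, whatever the strain. nlp-28 went the other way, at 13.9, 14.7, 8.09 and 9.63 CPM, and overlapped. nlp-27 stood at 72.2, 52.4, 59.7 and 65.1 CPM and nlp-31 at 3.33, 3.93, 3.44 and 5.43 CPM, with no such split.

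**Figure D2:**
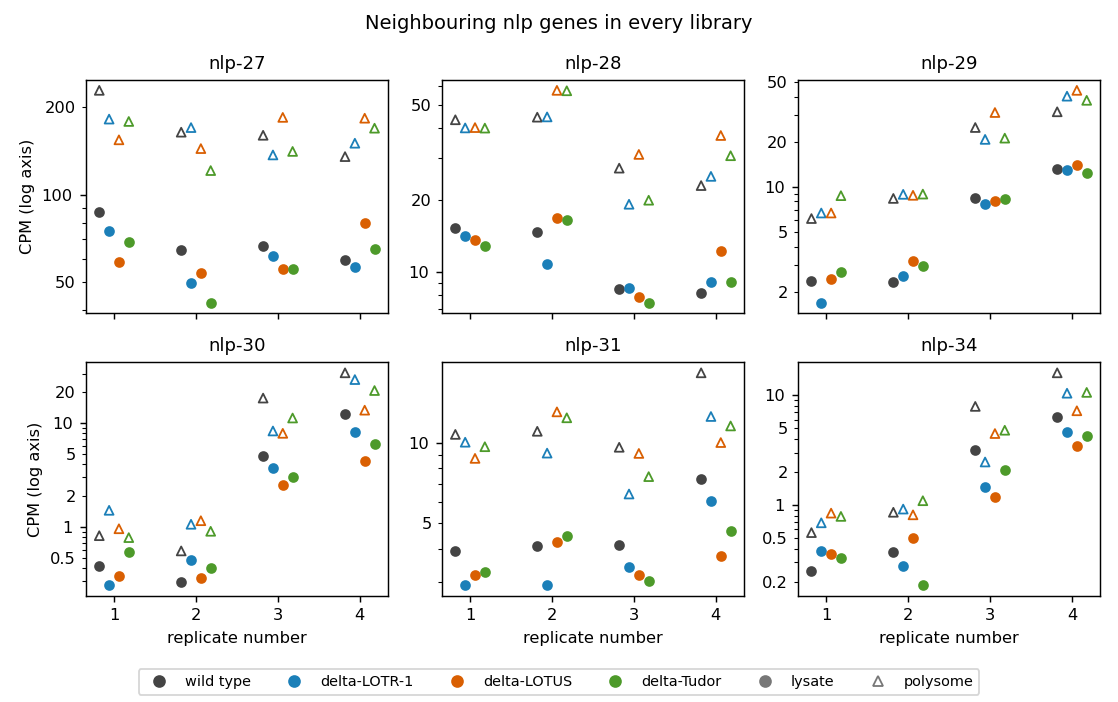
CPM on a log axis by replicate number for 6 neighbouring nlp genes, 1 point per library, with colour for strain, filled circles for lysates and open triangles for polysomes. nlp-29, nlp-30 and nlp-34 are higher in replicates 3 and 4 in every strain, nlp-28 is lower on average, and open triangles lie above the filled circles in each gene.

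Another run is ins-2, ins-3, ins-4, ins-5 and ins-6, of which the 4 that passed the filter had polysome ratios of 0.86 to 1.21 on the log2 scale. In the run of ins-24, ins-30 and ins-26 the ratios were 0.17, 0.37 and 1.54, of which ins-26 passed the test, and ins-30 passed with the block alone. In the run of flp-28, flp-3 and flp-2 they were 0.88, -0.15 and 0.79, with flp-3 not called without the block and lower with it. All 3 overlap the annotated gene W07E11.1. In all, 41 members overlap another annotated gene, for 30 of them a protein-coding one. The library kit marks strand, but no source used here says whether counting did, so reads of such pairs may be mixed.

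Replicate number had more weight than strain for these genes. Its median share of the lysate variance of log2 CPM was 57.8% over the 123 members tested, against 9.65% for strain. Over the 15646 genes at 0.3 CPM or more in at least 4 lysates the replicate share was 87.5%. This set, also used for the shares of genes that follow, was chosen by another rule than the low-count filter of the members. Of the 123 members, 18 were higher in every lysate of replicates 3 and 4 than in any of replicates 1 and 2, and 1 was lower, against 31.3% and 28.2% of 15646 genes. In polysomes 22 of 127 were higher and 5 lower, against 24.6% and 24% of genes. The largest splits were in nlp-25, from between 0.112 and 0.63 CPM to between 3.05 and 8.80 CPM, and in nlp-30. ins-37 measured 1.44 ± 0.591, 1.08 ± 0.312, 8.66 ± 0.988 and 14.5 ± 0.833 CPM in replicates 1 to 4 (SD over the 4 strains). ins-34 (WBGene00002117) measured 7.06 ± 0.514, 6.68 ± 0.876, 1.59 ± 0.38 and 0.435 ± 0.14 CPM, which is 6.78 times more in replicates 1 and 2 than in 3 and 4. The polysome fraction showed the same split for both, with ins-37 at 2.02, 1.15, 14.1 and 25.04 CPM and ins-34 at 7.21, 7.14, 1.40 and 0.391 CPM. nlp-81 and nlp-56 were 1.54 and 1.51 times higher in replicates 1 and 2, with overlap. Summed markers of several tissues also split by replicate number in lysates. Those of 15 epidermis genes were at 1203 to 1708 CPM in replicates 1 and 2 and 2460 to 3698 in replicates 3 and 4. Muscle markers went from between 4952 and 6479 CPM to between 8008 and 11030. Pharynx markers went from between 198 and 301.1 CPM to between 308.4 and 499.5. Sperm markers rose and germ line markers fell without overlap, while neuron, intestine and somatic gonad markers overlapped. The summed nlp-29 group was at 126.4 to 202.6 and 213.8 to 383.4 CPM. The part of any tissue in the split was not tested.

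The comparisons of the mutants with the wild type ask whether loss of lotr-1 or of one of its domains alters these mRNAs. All 3 use the same 4 wild-type lysates. Without a replicate block no member was called in delta-LOTR-1, delta-LOTUS or delta-Tudor lysates, where 0.27%, 0.144% and 0.0753% of 15939 genes were called; 3, 2 and 2 members had an unadjusted p under 0.05, and DESeq2 called 0, 1 and 0. The replicate numbers pair the samples, and with that block 3, 9 and 5 members were called, against 7.82%, 20.6% and 13.6% of all genes. The shares of members, 3 of 123, 9 of 123 and 5 of 123, were below these backgrounds. By direction, 0, 1 and 0 were higher, against 2.46%, 9.47% and 5.7% of genes, and 3, 8 and 5 lower, against 5.36%, 11.1% and 7.89%. The 1 higher call, counted among the 9, was ins-31. It passed the low-count filter through delta-LOTUS, where it is high, so this call is a description and not support. The median log2 change of the members, without the block, minus that of all genes was -0.11, -0.11 and -0.17; library totals set the median of all genes at 0.10, 0.09 and 0.14 and these gaps at -0.11, -0.11 and -0.18.

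**Figure D3:**
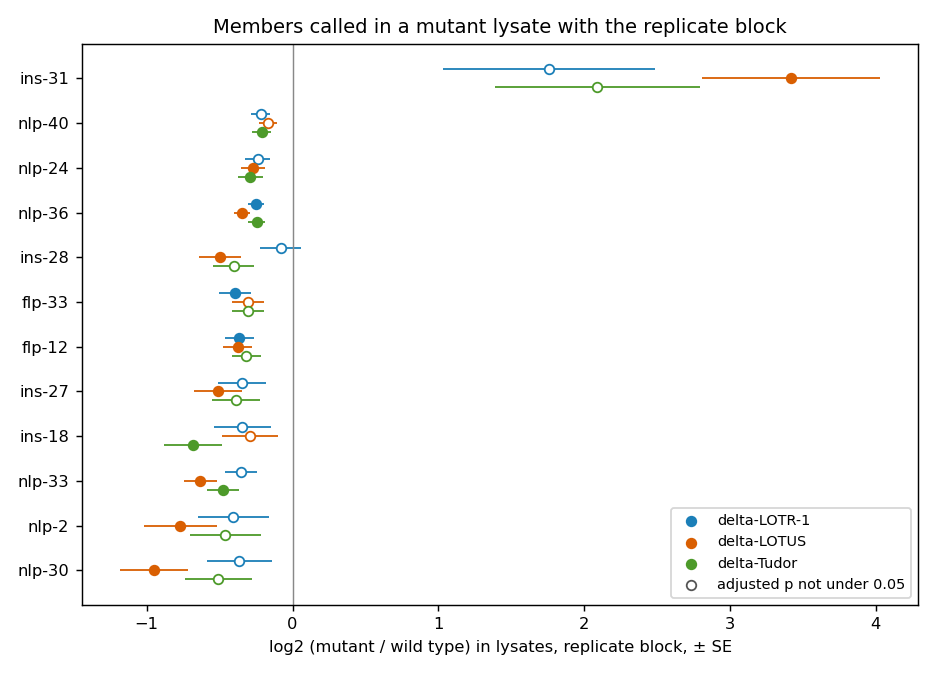
Log2 ratio of each mutant to the wild type in lysates, from the fit with the replicate block, for the 12 members called in at least 1 mutant; bars are standard errors and open points did not pass an adjusted p under 0.05. All estimates other than those of ins-31 lie below 0. ins-31 passed the low-count filter through delta-LOTUS, where it is high.

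The gene nlp-36 (WBGene00007185) was the only member called in all 3 mutants. Its lysates held 54.2, 50.5, 59.6 and 80.8 CPM in wild-type replicates 1 to 4, 44.0, 44.9, 53.6 and 66.1 CPM in delta-LOTR-1, 43.7, 45.4, 45.3 and 58.9 CPM in delta-LOTUS and 47.1, 44.9, 52.0 and 67.7 CPM in delta-Tudor. Each mutant was below the wild type at every replicate number, although the ranges overlapped. With the block the log2 changes were -0.25 (SE 0.06, adjusted p = 0.0186), -0.35 (SE 0.06, adjusted p = 0.00128) and -0.25 (SE 0.06, adjusted p = 0.0114) in delta-LOTR-1, delta-LOTUS and delta-Tudor; without it none passed, with adjusted p of 1 in each, rounded. Leaving out 1 replicate number at a time kept the delta-LOTUS call in 4 of 4 fits and the delta-LOTR-1 and delta-Tudor calls in 0 of 4. It overlaps the coding gene dars-1 in the annotation.

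nlp-33 (WBGene00003771), of the antimicrobial group, held 20.5, 19.8, 60.7 and 117 CPM in wild-type lysates, 17.7, 16.3, 33.5 and 56.2 CPM in delta-LOTUS and 17.97, 14.6, 45.2 and 73.9 CPM in delta-Tudor. The gap was small in replicates 1 and 2 and wide in replicates 3 and 4. With the block the change was -0.63 (SE 0.11, adjusted p = 0.00195) in delta-LOTUS, kept in 4 of 4 fits without 1 replicate number, and -0.48 (SE 0.11, adjusted p = 0.0134) in delta-Tudor, kept in 1 of 4. In delta-LOTR-1 it was -0.35 (adjusted p = 0.0672). nlp-30 also differed in replicates 3 and 4, with 4.80 and 12.3 CPM in the wild type against 2.52 and 4.31 CPM in delta-LOTUS, and its change was -0.95 (SE 0.23, adjusted p = 0.011), kept in 2 of 4 fits. nlp-24 was called in delta-LOTUS at -0.27 (adjusted p = 0.0365) and in delta-Tudor at -0.29 (adjusted p = 0.037), each kept in 1 of 4. Without the block the median log2 change of the 10 genes of the nlp-29 group tested was -0.29, -0.32 and -0.28 in delta-LOTR-1, delta-LOTUS and delta-Tudor, beside medians of -0.01, -0.02 and 0.00 over all genes. The mean summed CPM of the 15 epidermis markers was 2399 in wild-type lysates and 2363, 2174 and 2118 in delta-LOTR-1, delta-LOTUS and delta-Tudor, and that of the 11 cnc genes 40.56 and 34.58, 33.48 and 32.98, with ranges over replicates that overlapped. Their part in the levels of the nlp-29 group was not tested.

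ins-31 (WBGene00002114) was the only member called higher. It had 0.0279, 0.0791, 0.0791 and 0.0235 CPM in wild-type lysates, from 1, 3, 3 and 1 counts, and 0.509, 0.41, 1.43 and 0.226 CPM in delta-LOTUS, with replicate 3 the highest and no overlap. Summed over the 4 lysates this was 105 counts against 8, a ratio of 12.4 with an exact counting interval of 6.04 to 29.4 at 95%. delta-LOTR-1 and delta-Tudor lysates also lay above all wild-type lysates, with ratios of 3.57 (1.59 to 9.03) and 4.45 (2.04 to 11.1); these intervals cover counting error only. At least 10 counts were reached in 0 wild-type, 1 delta-LOTR-1, 1 delta-Tudor and 4 delta-LOTUS lysates, so the gene entered the test through delta-LOTUS, where it is high. Its log2 change there, 3.42 with the block (SE 0.61, adjusted p = 0.00209) and 3.53 without it (adjusted p = 0.0636), is therefore given as a description and not as support. With the block it was not called in delta-LOTR-1 (adjusted p = 0.159) or delta-Tudor (adjusted p = 0.0632). In polysomes delta-LOTUS had 1.07, 0.812, 2.76 and 0.348 CPM, which overlapped the wild type through its replicate 2 at 0.857 CPM, and the change was not called (adjusted p = 0.116 with the block).

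**Figure D4:**
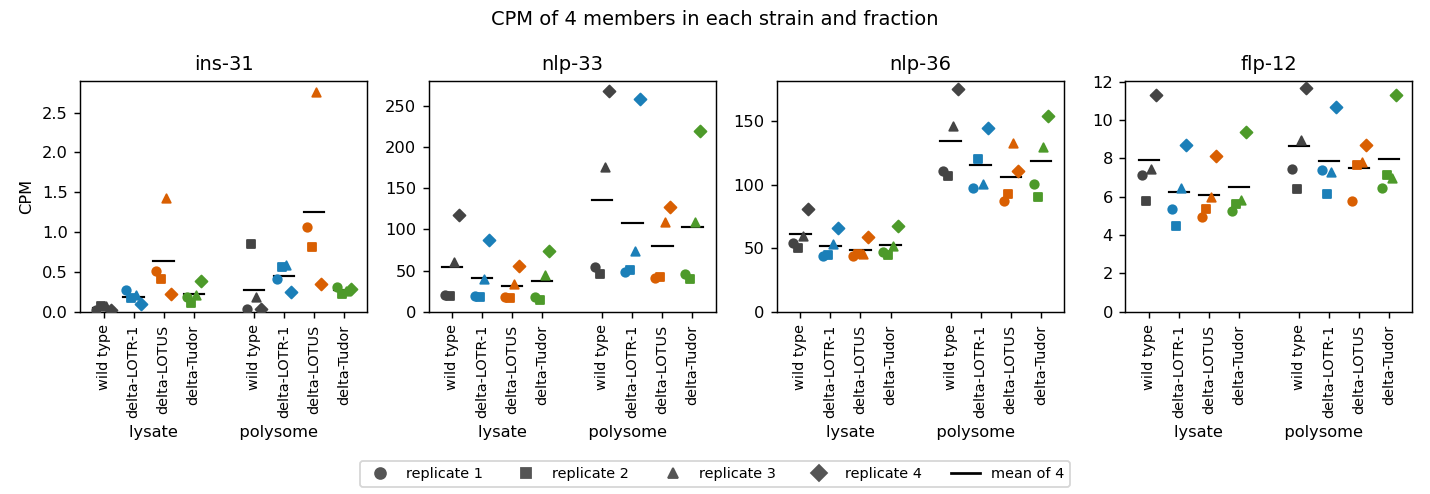
CPM of ins-31, nlp-33, nlp-36 and flp-12 in each strain, lysates at left and polysomes at right of each panel, with marker shape for replicate number and a bar for the mean of 4. The mean of ins-31 is highest in delta-LOTUS in both fractions, and nlp-33 is highest in replicate 4 in each strain and fraction.

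The remaining calls with the block were below 1 on the log2 scale. flp-12 was lower in delta-LOTR-1 at -0.36 (SE 0.10, adjusted p = 0.0415) and in delta-LOTUS at -0.38 (SE 0.10, adjusted p = 0.0169), and flp-33 in delta-LOTR-1 at -0.40 (SE 0.11, adjusted p = 0.0447). In delta-LOTUS nlp-2 (-0.77), ins-27 (-0.51) and ins-28 (-0.50) were called, with wild-type replicate 4 of nlp-2 at 2.86 CPM beside 0.949 to 1.13 CPM in the others. In delta-Tudor the antagonist gene ins-18 fell by 0.68 (SE 0.20, adjusted p = 0.0365), from 1.12, 1.05, 1.29 and 1.29 CPM to 0.904, 0.531, 0.566 and 1.12 CPM, and nlp-40 was at -0.21 (SE 0.06, adjusted p = 0.0426). Each of these was kept in 0 or 1 of 4 fits without 1 replicate number.

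Of the pathway genes, none was called in a mutant lysate without the block. With it daf-2 was higher in all 3 mutants: its wild-type lysates held 49.2, 47.9, 31.7 and 9.53 CPM, delta-LOTR-1 71.8, 71.5, 45.4 and 15.5 CPM, delta-LOTUS 95.7, 63.7, 54.4 and 22.5 CPM, and delta-Tudor 89.9, 81.5, 57.9 and 15.1 CPM. Every mutant lysate was above the wild-type lysate of its number. The log2 changes were 0.56 (SE 0.12, adjusted p = 0.0159), 0.83 (SE 0.12, adjusted p = 0.000883) and 0.75 (SE 0.12, adjusted p = 0.00266). In the insulin pathway 1, 4 and 3 of 19 genes were called higher in delta-LOTR-1, delta-LOTUS and delta-Tudor and none lower, against 2.46%, 9.47% and 5.7% of all genes called higher, including daf-18 and akt-1 in both domain deletions. Among 20 processing and release genes 1, 2 and 2 were higher and 1, 0 and 0 lower, and among 83 receptor genes 2, 2 and 3 were higher and none lower; the receptor shares were near or below those of all genes. Of the 10 other peptide precursors none was called.

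In the polysome fraction no member was called in any mutant, with or without the block, where 0.221%, 0.0585% and 0.0975% of 15378 genes were called without it and 0.631%, 1.05% and 0.228% with it; 1, 3 and 0 members had an unadjusted p under 0.05, and DESeq2 called none. Between mutants no member was called in either fraction with either fit, while 0.176%, 0.119% and 0.0941% of genes were called in lysates without the block for delta-LOTUS against delta-LOTR-1, delta-LOTUS against delta-Tudor and delta-Tudor against delta-LOTR-1, and 1.36%, 0.847% and 0.527% with it. In polysomes the same comparisons called 0.137%, 0.0715% and 0.104% of genes without the block and 0.481%, 0.306% and 0.208% with it. At most 1 member had an unadjusted p under 0.05 in any of these 6 comparisons, and DESeq2 called none. Translational efficiency, the polysome to lysate ratio of a mutant against that of the wild type, was called for no member and for 0% of the 16253 genes in any mutant without the block. The block called 0.0554% of genes in delta-LOTR-1, none in delta-LOTUS and 0.00615% in delta-Tudor, no member among them; 0, 1 and 1 members had an unadjusted p under 0.05 without the block, and DESeq2 called none. The median log2 change of this ratio over the members was 0.12, 0.15 and 0.13 in delta-LOTR-1, delta-LOTUS and delta-Tudor, beside 0.01, 0.04 and 0.02 over all genes.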

How the data were processed

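Expected counts per gene from Salmon (named without version in the submitters' processing notes, with DESeq2) were deposited for 32 libraries made with a stranded mRNA kit, per the labels' protocols; the build, the annotation and any use of strand are named by no source used here. The counts were rounded for tests, 15.3% of positive values not being whole. A second deposited table, of replicate-adjusted whole numbers whose making is not given, was treated as a score and used only as an alternative. Tests used R 4.3.3, edgeR 4.0.16 (filterByExpr, TMM, quasi-likelihood test, Benjamini-Hochberg over all genes, adjusted p under 0.05), limma 3.58.1 and DESeq2 1.42.0. One fit per fraction held 16 libraries and the strain; fractions were compared over 32 libraries. CPM values are on the TMM sizes of the 32-library fit. Standard errors are the log2 change divided by the square root of F. The deposited replicates are called biological in the series text without naming separate cultures, and the p-values cover only the spread among them, which may be technical.

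Labels give the strains shared replicate numbers. Deviations from group means of same-numbered libraries correlated with r of 0.894 to 0.967 in lysates and 0.832 to 0.942 in polysomes (12213 genes with a mean of 50 counts or more). For libraries of other strains and other numbers r ran from -0.951 to 0.927 and from -0.933 to 0.916, so the ranges overlap. The best match had the same number for 16 of 16 and 15 of 16 libraries, so the numbers pair the samples. The study states no replicate term, and the fit without the block stayed the primary one.

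Members and gene lists were chosen with earlier results of these data known. Genes named were, per family, the 6 with the highest mean CPM in wild-type lysates, up to 5 called members per mutant comparison and direction and 6 for polysome against lysate, the 4 highest and 4 lowest ratios of replicates 3 and 4 to 1 and 2, members chosen by role, and pathway genes called without the block plus egl-3, egl-21, daf-2, daf-16 and daf-28. Symbols of 140 of 144 members matched RefSeq (WBcel235), used for names and neighbours. Sequences and lengths were not used here, so levels are not compared between genes per length as planned. Alternatives were DESeq2, library totals, no filter, the score table, the replicate block and leaving out each replicate. Scripts were tested on simulated counts of delta-LOTUS against the wild type. Without the block 17% of 2-fold and 39% of 4-fold changes were recovered in lysates, and 11% and 42% in polysomes. With it these were 84%, 99%, 80% and 97%. For translational efficiency 5% and 27% were recovered without the block and 32% and 86% with it. Changes of such size can thus go uncalled.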

Additional observations from a re-analysis of the deposited data

Results flagged for a closer look

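Of 368 sets of 4 replicates examined for 46 named genes, 20 held a library far from the other 3 by Dixon's ratio. Chance gives 1 in 20 for unrelated sets, but these sets share libraries, so the total cannot be judged against it. In 18 of the 20 flagged sets the library was replicate 4. In lysates, flp-1 was at 23.1 CPM in delta-Tudor replicate 4 beside 14.6 to 14.8 CPM in the others, and flp-12 there at 9.40 beside 5.23 to 5.84 CPM. nlp-2 was at 2.86 CPM in wild-type replicate 4 (others up to 1.13) and at 2.15 CPM in delta-LOTR-1 replicate 4 (others up to 0.892). nlp-31 was at 7.30 CPM in wild-type replicate 4 (others up to 4.14) and at 6.02 CPM in delta-LOTR-1 replicate 4 (others up to 3.41). nlp-1 was at 4.40 CPM in delta-LOTR-1 replicate 4, nlp-36 at 58.9 CPM in delta-LOTUS replicate 4, ins-29 at 0.525 CPM in delta-Tudor replicate 4, and ins-28 at 1.34 CPM in delta-LOTUS replicate 4 and 1.48 CPM in delta-Tudor replicate 4.

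In polysomes, nlp-33 was at 258 CPM in delta-LOTR-1 replicate 4 beside 48.5 to 73.5 CPM, and flp-13 there at 9.99 beside 6.59 to 6.77 CPM. Wild-type replicate 4 was high for nlp-31 at 18.2 CPM, ins-6 at 4.08 CPM and ins-11 at 0.411 CPM. delta-Tudor replicate 4 was high for flp-12 at 11.3 CPM and nlp-1 at 4.56 CPM. The 2 flags outside replicate 4 were nlp-77 at 1350 CPM in delta-LOTR-1 replicate 2, above 1190 to 1220 CPM, and ins-6 at 3.21 CPM in delta-LOTUS replicate 2, below 3.63 to 3.68 CPM. Germ line markers were at their lowest in replicate 4 of every strain; their part in these values was not tested.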

How the results depend on the processing

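For members called in mutant lysates, 0 in each mutant without the block, the replicate block gave 3, 9 and 5 in delta-LOTR-1, delta-LOTUS and delta-Tudor, and the replicate-adjusted scores gave 2, 5 and 3. The 9 include ins-31, which entered the test through delta-LOTUS. DESeq2 gave 1 in delta-LOTUS, and leaving out 1 library gave 0 to 1 there. With the block, leaving out 1 replicate number gave 0 to 0 calls in delta-LOTR-1, 3 to 8 in delta-LOTUS and 0 to 6 in delta-Tudor; delta-LOTUS polysomes and delta-LOTUS against delta-Tudor lysates, with 0 calls, gave 0 to 1. The adjusted table gave 1 call in delta-LOTUS polysomes. For polysome against lysate in the wild type, with 42 calls, the block gave 89, library totals 15, no low-count filter 24 and leaving out 1 replicate 26 to 35. The replicate-adjusted scores called 48 members higher and 9 lower, the most lower calls of any setting. These counts include members that passed the filter only with the polysome libraries. Over the 4 strains the split of all genes was 4099 higher and 4263 lower with TMM and 2116 higher and 6106 lower on library totals, and of members 101 and 2 against 66 and 6. The block changed no other call count by over 1.5 times. Signs turned without the block for nlp-24 in delta-LOTUS (range without 1 replicate -0.679 to 0.0985) and delta-Tudor (-0.595 to 0.0216), nlp-30 in delta-LOTUS (-2.078 to 0.065) and nlp-33 in delta-Tudor (-1.118 to 0.157). On library totals and in the adjusted table flp-14 was -0.0385 and -0.0683, flp-18 -0.0926 and -0.15, and ins-17 -0.0419 and -0.0621 in polysomes against lysate. For these the cause was not tested. Genes of few counts, such as ins-31, are limited by depth.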
